A study of Homo sapiens with 8 samples.

Results

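The carbonic anhydrase genes CA1, CA2, CA4, CA8, CA9, CA11 and CA12 were followed across the 4 groups of a GATA6 knockdown experiment in 2 cancer cell lines. They were taken by gene symbol from the array's annotation, with every probe set of each gene, which gave 6 of the 7 genes out of 11963 genes named on the array. For CA9 the annotation table used here named no probe set, and CA9 was not analysed here. Of the 6 genes, CA2, CA11 and CA12 had a signal that could be tested, and CA1, CA4 and CA8 did not.

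Caco-2 is a line from a colorectal adenocarcinoma, and HUG1N, which the labels also call HuG-1, was used in a study of gastric cancer. Each line had a control group and a group in which a short hairpin RNA (shRNA) targeted GATA6, which encodes a DNA-binding protein needed for gut development, with 2 arrays in each group. The treatment text, which is the same for all samples, describes infection with the GATA6 shRNA, selection with puromycin and harvest. The treatment of the control cells and the length of selection are not stated. Nor is it stated that replicate arrays hold separate cultures, so p-values reflect spread among arrays that may be only technical.

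Carbonic anhydrases are zinc enzymes that convert carbon dioxide and water into bicarbonate and a proton, and back. CA1 and CA2 are cytosolic enzymes, CA4 is held on the outer cell surface by a lipid anchor, and CA9 and CA12 span the membrane with their catalytic domain outside the cell. CA8 and CA11 are related proteins without the catalytic activity. In the gut these enzymes serve acid and bicarbonate secretion and salt absorption, CA1, CA2 and CA4 are known from the mature colon epithelium, and CA9 and CA12 are known as hypoxia-responsive genes of tumours.

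All values are log2 expression values made by the authors with GCRMA, which removes background, brings the arrays to 1 distribution and gives each probe set 1 value. The lowest value on every array was 2.08. A gene was tested if its brightest probe set exceeded log2 4 in at least 2 of the 8 arrays, which kept 7696 genes. Differences were fitted with limma on the 4 group means, and a gene is called when its Benjamini-Hochberg adjusted p, taken over all tested genes, is under 0.05. Where no array of the dimmer group exceeded log2 4, a fold is given as a bound against log2 4 and written as "at least".

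GATA6 itself, the check of the labels, moved little, and was called lower in Caco-2 but not in HUG1N. In Caco-2 its mean log2 value was 12.54 without and 12.12 with the shRNA (-0.42, SE 0.10, limma adjusted p = 0.0224), and 12.50 and 12.24 in HUG1N (-0.25, SE 0.10, limma adjusted p = 0.0879). Across the tested genes, replicate arrays had a Pearson correlation between 0.995 and 0.997. The gap between the 3′ and 5′ control probe sets of ACTB, a measure of RNA integrity, was 1.92 ± 0.02 in control and 1.55 ± 0.13 in shRNA arrays of Caco-2 (SD, n = 2 each). In HUG1N the same gap was 2.51 ± 0.23 and 3.73 ± 0.06 (SD, n = 2 each), and the mean log2 value of the hybridisation controls was 11.89 ± 0.20 and 9.51 ± 0.07. The part of these array differences in the results below was not tested. The epithelial markers EPCAM, CDH1, KRT8, KRT18 and KRT19 exceeded log2 4 in every array, and all 5 erythroid markers with a probe set were under it in every array. Of 7 stomach epithelium markers, 6 exceeded log2 4 in both HUG1N control arrays and 3 in both Caco-2 control arrays, and 5 and 3 with the shRNA. The log2 of their summed level ran from 11.89 to 11.97 without and 8.51 to 8.73 with the shRNA in Caco-2, and from 14.96 to 15.03 and 14.35 to 14.63 in HUG1N. Of the 6 stomach markers tested, 2 fell and 0 rose in Caco-2, where 19.2% of all tested genes were called lower and 19.5% higher. In HUG1N 3 fell and 1 rose, where 23.9% were called lower and 24.7% higher. The trefoil factor genes TFF2 and TFF1 changed by -4.22 and -3.20 in Caco-2, and the tight junction gene CLDN18 by -2.71 in HUG1N. MUC5AC was the 1 that rose in HUG1N, by 0.57 (SE 0.13, limma adjusted p = 0.0114). PGC, the pepsinogen C gene, was at least 3.19-fold lower in HUG1N, and passed the filter only through the HUG1N control arrays. The log2 of the summed level of the 9 fibroblast markers in Caco-2 ran from 5.86 to 5.95 without and 7.81 to 7.96 with the shRNA, where 2 of them exceeded log2 4 in both arrays. With the shRNA this sum was mostly LUM, at means of 3.43 without and 7.53 with it. Of the 2 fibroblast markers tested, LUM was the 1 called in Caco-2. It passed the filter only through the Caco-2 shRNA arrays, where it was highest. Of 7 immune markers, the leukocyte genes PTPRC, CD3E, CD3D, CD2 and MS4A1 were at or near the lowest value in all groups. The log2 of the summed level of all 7, 9.36 to 9.77 without and 7.68 to 7.83 with the shRNA in Caco-2, was mostly LYZ, a lysozyme gene also active in gastric epithelium, at means of 9.47 and 7.52. In HUG1N LYZ went the other way, by 0.57 (SE 0.16, limma adjusted p = 0.0252). The summed level there ran from 12.39 to 12.46 without and 12.92 to 13.07 with the shRNA. Of 5 tested intestinal epithelium markers, 3 fell and 0 rose in Caco-2. There CDH17 and CDX2 changed by -0.74 and -0.62. LGALS4 was at least 1.26-fold lower, from a Caco-2 control mean of 4.34 (SD 0.89) with only 1 control array over log2 4. In HUG1N 1 fell (CDX1, -1.59) and 1 rose (VIL1, 1.15). Of the 5 epithelial markers, 3 rose in Caco-2 (KRT8, KRT19 and KRT18, by 1.58, 1.56 and 1.20) and 4 in HUG1N, and 0 fell. The all-gene shares are those given for the stomach markers. The part of the stomach, intestinal, epithelial and fibroblast markers in the results below was not tested.

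CA2 and CA12 both fell with the shRNA in both lines. CA12, the membrane-spanning enzyme, was left at 14.8% of its control level in Caco-2 and 22.8% in HUG1N. CA2, the fast cytosolic enzyme, was left at 20.9% in Caco-2 and 47.3% in HUG1N. CA11 was near the detection limit and is described separately. In such bulk RNA, fewer cells expressing a gene and less RNA per cell cannot be told apart. Of the 3 tested carbonic anhydrases, 3 were called lower in Caco-2, where 19.2% of all tested genes were, and 3 in HUG1N, where 23.9% were. Genes called lower in both lines made up 6.89% of the tested genes, 530 of 7696. CA11 passed the filter only through Caco-2 control, the group where it was highest, so its place in these counts is no support.

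**Figure D1:**
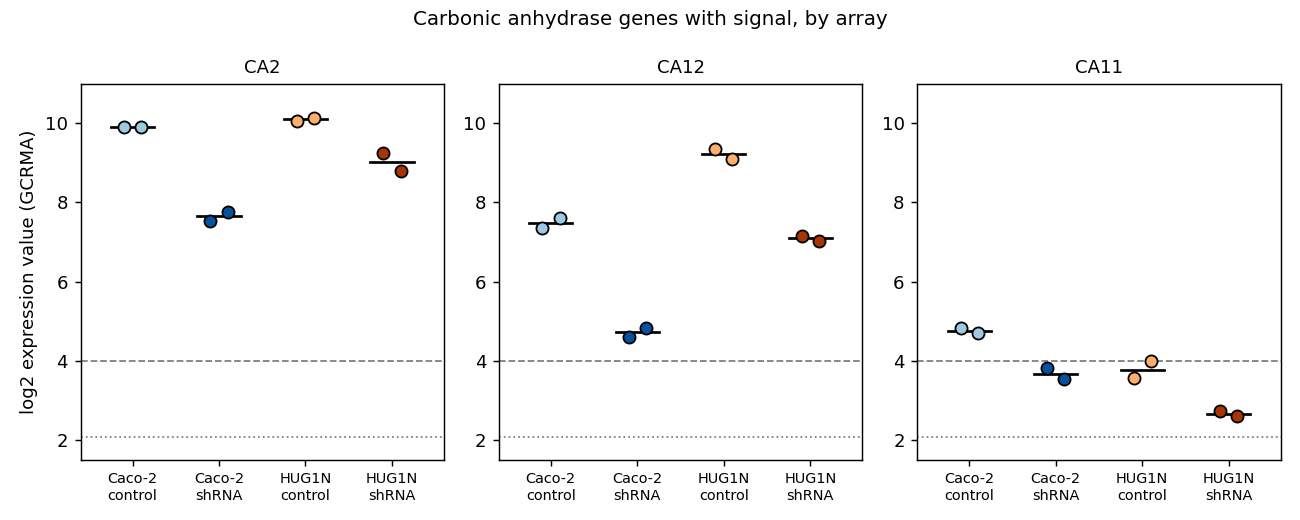
Log2 expression values (GCRMA) of CA2, CA12 and CA11 by group, from the brightest probe set of each gene. Each point is 1 of the 8 arrays, black bars are the means of 2 arrays, the dashed line is log2 4 and the dotted line the lowest value, 2.08; in both lines all shRNA points of CA2 and CA12 lie below all control points.

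Of the cytosolic enzymes, CA1 had no signal. Its 2 probe sets lay between 2.08 and 2.16 in all 8 arrays, so no fold can be given. CA1 is an abundant enzyme of red cells as well as of colon epithelium, and the erythroid markers were all under log2 4 too.

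CA2 was bright in both lines. In Caco-2 its 1 probe set read 9.91 and 9.90 in control arrays and 7.52 and 7.77 in shRNA arrays. The groups did not overlap. The change was -2.26 (SE 0.16, limma adjusted p = 1.98e-04), a 4.78-fold fall that left 20.9% of the control level (95% interval 16.0 to 27.5%). Among the 1375 genes called lower in Caco-2 with all 4 arrays over log2 4, CA2 ranked 39 by the size of its fall.

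In HUG1N, CA2 read 10.06 and 10.14 in control and 9.25 and 8.79 in shRNA arrays. Both shRNA arrays were again below both controls, and they lay further apart than any other pair, with an SD of 0.33 against 0.0065 in Caco-2 control. The change was -1.08 (SE 0.16, limma adjusted p = 0.00254), a 2.11-fold fall to 47.3% of control (95% interval 36.1 to 62.1%). When a change of at least 1.5-fold was required, this call was lost (limma adjusted p = 0.0877; 7.86e-04 to 0.0877 over 20 alternatives). The ACTB gap of these arrays was 3.73 against 2.51, and its part in the fall was not tested.

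The fall of CA2 was larger in Caco-2 than in HUG1N. The difference between the shRNA effects was 1.18 log2 units (SE 0.23, limma adjusted p = 0.00794, 95% interval 0.62 to 1.73), in a comparison in which 44.9% of all tested genes were called in either direction. It held with each array left out in turn, at 0.95 to 1.41, and was lost with the 1.5-fold minimum (limma adjusted p = 0.120; 0.00331 to 0.120 over 19 alternatives). The control groups of the 2 lines had close levels of CA2, with HUG1N higher by 0.20 (SE 0.16, 95% interval -0.19 to 0.59, limma adjusted p = 0.287), although their arrays did not overlap. That comparison called 78.4% of all tested genes. With the 2 control groups fitted alone, CA2 was called in it (limma adjusted p = 0.0448; 0.0448 to 1 over 20 alternatives). In order of level, CA2 was highest in HUG1N control, then Caco-2 control, HUG1N shRNA and Caco-2 shRNA, with no overlap of arrays between neighbours. Caco-2 control and HUG1N shRNA, and the 2 shRNA groups, were not tested against each other.

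**Figure D2:**
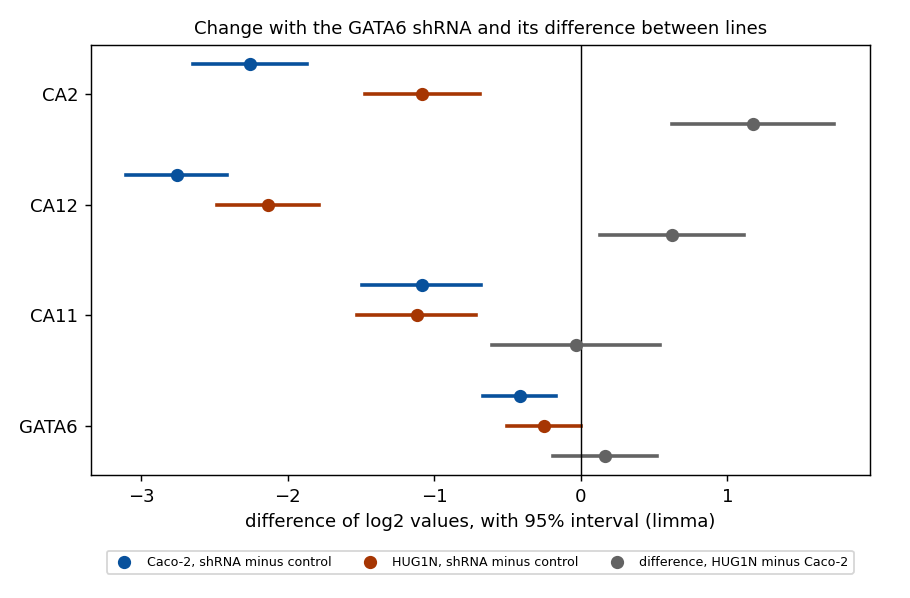
Change of CA2, CA12, CA11 and GATA6 with the shRNA in Caco-2 (blue) and HUG1N (brown), as differences of log2 values with 95% intervals from limma, and the difference between the lines' changes (grey, HUG1N minus Caco-2). The intervals of CA2 and CA12 lie below 0 in both lines, and the grey intervals of both lie above 0; those of CA11 rest on values near or under log2 4.

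Of the membrane-bound enzymes, CA4 had no signal in either line. Both of its probe sets were at 2.08 in all 8 arrays.

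CA12 was the carbonic anhydrase with the largest falls. Its brightest probe set, 215867_x_at, gave 7.35 and 7.60 for the controls of Caco-2 and 4.61 and 4.83 for its shRNA arrays. The groups were separated by more than 2 log2 units. The change was -2.76 (SE 0.14, limma adjusted p = 5.33e-05), a 6.75-fold fall to 14.8% of control (95% interval 11.7 to 18.8%). It ranked 20 among the 1375 called falls measured in both Caco-2 groups.

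In HUG1N the same probe set read 9.36 and 9.09 in control and 7.16 and 7.02 in shRNA arrays. Again no shRNA array reached a control array. The change was -2.13 (SE 0.14, limma adjusted p = 1.70e-04), a 4.39-fold fall to 22.8% of control (95% interval 17.9 to 29.0%). It ranked 58 among 1714 called falls measured in both HUG1N groups. Ranked by the smaller of the 2 lines' falls, CA12 was 5 and CA2 was 39 among the 489 genes called lower in both lines with every array over log2 4. The ranks describe these arrays only.

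HUG1N control cells held more CA12 than Caco-2 control cells. The difference was 1.75 (SE 0.14, limma adjusted p = 4.38e-05), or 3.36-fold (95% interval 265 to 427% of the Caco-2 level). The order of groups was HUG1N control, Caco-2 control, HUG1N shRNA and Caco-2 shRNA. Caco-2 control and HUG1N shRNA, the neighbours in the middle, had means of 7.47 and 7.09 and were not tested against each other, and their arrays did not overlap.

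Whether CA12 fell more in Caco-2 than in HUG1N was less firm. The difference was 0.62 (SE 0.20, 95% interval 0.13 to 1.11, limma adjusted p = 0.0464). Over 19 alternatives it stayed positive, at 0.23 to 0.76, and the call was lost in 11 (limma adjusted p from 0.0191 to 1). Leaving out Caco-2 control replicate 2 gave 0.50 (adjusted p = 0.133), Caco-2 shRNA replicate 1 gave 0.51 (adjusted p = 0.130) and Caco-2 shRNA replicate 2 gave 0.73 (adjusted p = 0.0550). Leaving out HUG1N control replicate 2 gave 0.49 (adjusted p = 0.120), HUG1N shRNA replicate 1 gave 0.55 (adjusted p = 0.123) and HUG1N shRNA replicate 2 gave 0.70 (adjusted p = 0.0681). With the mean of the probe sets it was 0.23 (adjusted p = 0.212).

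CA12 has 6 probe sets, and they read the gene at very different brightness. Only 214164_x_at and 215867_x_at exceeded log2 4 in all 8 arrays. Probe set 204509_at was at 2.08 in all 8 arrays. Of the 5 that passed the filter in a fit of 12758 probe sets, 4 were called lower in Caco-2, where 17.3% of probe sets were, and 5 in HUG1N, where 23.3% were. One of the HUG1N calls, 210735_s_at, passed the filter only through the HUG1N control arrays, where it was highest, so it is no support for the fall. An ending of x_at marks a probe set whose probes may also bind other transcripts, so the brightest one is uncertain on that point.

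Probe set 203963_at, which has no such ending, gave the sharpest separation. It read 6.86 and 6.94 in control and 2.20 and 2.14 in shRNA arrays of Caco-2, then 9.04 and 9.09 in HUG1N control, and 6.45 and 6.42 in HUG1N shRNA arrays. On this probe set the Caco-2 shRNA arrays were near the lowest value, while 214164_x_at and 215867_x_at stayed over log2 4 in the same arrays. The fall there was at least 7.46-fold (limma adjusted p = 9.56e-07). In HUG1N the fall was 6.18-fold, to 16.2% of control (limma adjusted p = 1.78e-05).

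Probe set 214164_x_at was measured in all groups and fell 5.71-fold in Caco-2 and 3.66-fold in HUG1N. Its difference between lines was 0.64 (SE 0.09, limma adjusted p = 0.00324), close to the 0.62 of 215867_x_at (limma adjusted p = 0.0509 among probe sets). Probe set 204508_s_at fell at least 2.55-fold in Caco-2 and 8.90-fold in HUG1N, with a difference of -0.79 (SE 0.37, limma adjusted p = 0.132). Probe set 210735_s_at exceeded log2 4 only in HUG1N control, at 4.68 and 4.24, and fell at least 1.37-fold there. In Caco-2 it was under log2 4 in all 4 arrays, so its limma difference between lines (-1.19, adjusted p = 0.0143) has no fixed size. The 4 probe sets over log2 4 in the control arrays of both lines were lower with the shRNA in both. The difference between lines was 2.10 on 203963_at (SE 0.10, limma adjusted p = 6.86e-05), positive as on 214164_x_at and 215867_x_at. Of these 4 probe sets, only 204508_s_at had a negative difference, and it was not called. On 203963_at and 204508_s_at the Caco-2 shRNA arrays were under log2 4, so these 2 differences have no fixed size.

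**Figure D3:**
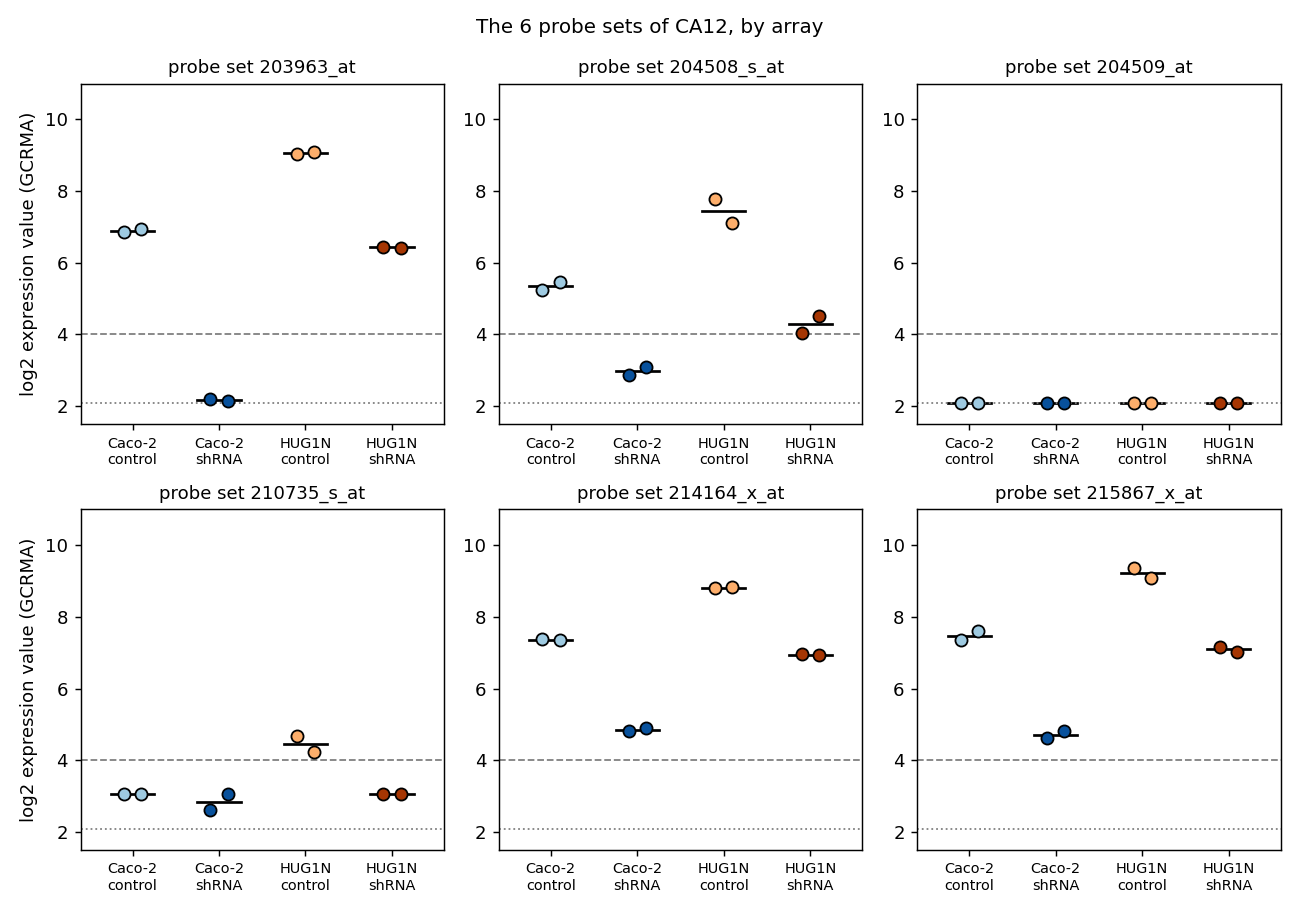
Log2 expression values (GCRMA) of the 6 probe sets of CA12 in the 8 arrays, drawn as points with the mean of each group as a bar; dashed line log2 4, dotted line 2.08. Probe set 203963_at drops to the lowest values in Caco-2 shRNA arrays, 204509_at has no signal, and the other 4 are dimmer in HUG1N shRNA than in HUG1N control arrays.

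The promoter of CA12 is shown because the shRNA targeted a GATA factor and CA12 is the member with the largest falls. It is the stretch of 250 bases before the gene's start in RefSeq on GRCh38.p14, chr15:63381847-63382096, minus strand, written 5′ to 3′ with motif matches in capitals, and it is 64.8% G and C.
CA12 promoter: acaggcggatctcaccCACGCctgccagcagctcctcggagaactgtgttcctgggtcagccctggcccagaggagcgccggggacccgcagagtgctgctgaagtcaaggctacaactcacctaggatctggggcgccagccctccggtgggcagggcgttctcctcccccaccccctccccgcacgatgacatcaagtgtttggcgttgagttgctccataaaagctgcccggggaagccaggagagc

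The GATA motif, the letters AGATAA with T also allowed first and G also allowed last, was searched on both strands and was not found in these letters. It was found in 22.3% of 35116 RefSeq promoters of the same length. The hypoxia-inducible factor core motif, ACGTG with G also allowed first, likewise searched on both strands, was found 1 time, on the opposite strand, with its outermost base 234 bases before the start (43.2% of promoters hold it). Of the 7 carbonic anhydrases, 2, CA9 and CA12, were in the promoter table.

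The related proteins without catalytic activity had little or no signal. The 1 probe set of CA8, which binds an inositol trisphosphate receptor, was at 2.08 in all 8 arrays. CA11 read 4.83 and 4.70 in control and 3.82 and 3.53 in shRNA arrays of Caco-2, then 3.56 and 3.99 in HUG1N control, and 2.72 and 2.59 in HUG1N shRNA arrays. Only the 2 Caco-2 control arrays exceeded log2 4.

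The fitted change of CA11 was -1.09 (SE 0.17, limma adjusted p = 0.00384) in Caco-2 and -1.12 (SE 0.17, limma adjusted p = 0.00256) in HUG1N, with no overlap between groups in either line. In Caco-2 this is a fall of at least 1.70-fold. In HUG1N no fold can be given, since all 4 arrays were under log2 4, and with values under 4 raised to 4 the change there was 0. Both calls were lost when a 1.5-fold change was required (limma adjusted p = 0.121 in Caco-2 and 0.0782 in HUG1N; 3.77e-04 to 0.121 and 0.00225 to 1 over 19 alternatives). The difference between the lines was -0.03 (SE 0.24, 95% interval -0.61 to 0.54, limma adjusted p = 0.920), and its sign changed with the processing. HUG1N control was below Caco-2 control by at least 1.70-fold (-0.99, SE 0.17, limma adjusted p = 0.00165). CA11 passed the filter only through the Caco-2 control arrays, where it was highest. The 2 comparisons with that group are therefore no support for a difference.

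The other carbonic anhydrases on the array had no signal over log2 4 in any array. These were CA3, CA5A, CA5B, CA6, CA7, CA10 and CA14, 7 of the 8 other family members looked for. CA3 read 3.01 and 2.79 in HUG1N control arrays, and CA14 read 2.53 and 3.02 in HUG1N shRNA arrays. In RefSeq, CA13, CA1, CA3 and CA2 follow one another along the same chromosome. CA2 was thus the only one of the 3 measured genes of that row with a signal over log2 4.

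**Figure D4:**
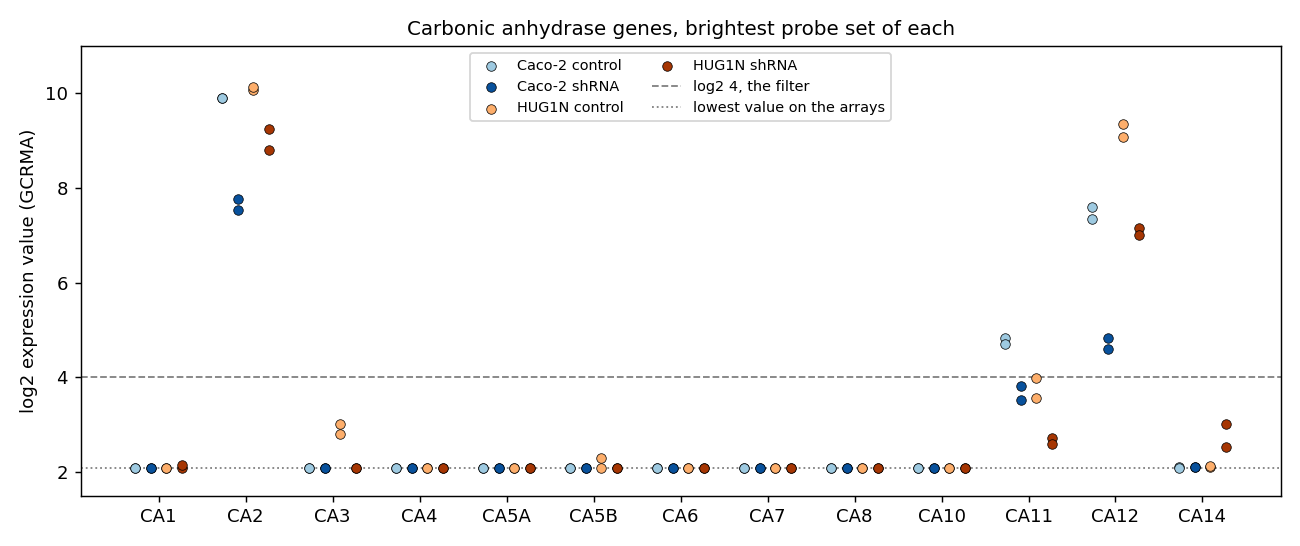
Log2 expression values (GCRMA) of 13 carbonic anhydrase genes, brightest probe set of each, with 1 point per array coloured by group; dashed line log2 4, dotted line 2.08. CA2 and CA12 lie over log2 4 in every array, CA11 only in Caco-2 control arrays, and the other 10 genes in none.

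By pattern, CA2 was closest to FABP5, a fatty acid carrier, and CCDC88A, an actin-binding protein. Likeness is the root mean square difference of the 8 log2 values after centring each gene, a description over 8 arrays in 4 groups. It was 0.22 for FABP5, whose means ran 12.48, 10.11, 12.47 and 11.94 over Caco-2 control, Caco-2 shRNA, HUG1N control and HUG1N shRNA, and 0.26 for CCDC88A. CA12 was closest to the kinase gene TNIK at 0.50 and to DEPTOR, an mTOR-binding protein, at 0.54. DEPTOR had means of 8.83, 4.85, 9.85 and 8.40 over the same groups. The nearest to CA11 were MDH1, a malate dehydrogenase, at 0.12 and SUPT16H, a histone chaperone, at 0.15. CA2 and CA12 differed from each other by 0.77.

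Bicarbonate and chloride transporters, the partners of carbonic anhydrases at the membrane, were counted from a list of 17 genes, of which 7 were tested. In Caco-2, 2 fell and 0 rose (5 of the 7 had no adjusted p under 0.05; median change -0.45 against -0.0030 over all genes), where 19.5% of all genes were called higher and 19.2% lower. SLC4A8, a sodium-driven bicarbonate exchanger, was called lower, at least 1.28-fold from 4.35, but passed the filter only through the Caco-2 control arrays, where it was highest, so it is no support for a fall of the list. The sulfate transporter SLC26A2 changed by -0.58 (SE 0.08, limma adjusted p = 0.00220). The chloride-bicarbonate exchanger SLC26A3 and the chloride channel CFTR, with means of 8.93 and 11.22 in Caco-2 control and 9.52 and 10.50 in shRNA arrays, were not called. The SD of SLC26A3 was 0.60 in Caco-2 shRNA arrays. That of CFTR was 0.03 in both Caco-2 groups, and 0.55 in HUG1N control arrays, which were under log2 4 but enter the same fitted spread.

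In HUG1N, 1 transporter rose and 2 fell of the 7 (median change 0.01), where 24.7% of all genes were called higher and 23.9% lower. SLC26A2 changed by 1.04 (SE 0.08, limma adjusted p = 2.22e-04), the opposite direction to Caco-2. The sodium bicarbonate cotransporter SLC4A7 changed by -0.89 (SE 0.20, limma adjusted p = 0.0122; 0.0167 to 0.0596 with 1 HUG1N array left out, and called only without shRNA replicate 1) and the anion exchanger SLC4A2 by -0.77 (SE 0.15).

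Of 20 listed genes of proton and lactate export, 5 were tested. In Caco-2, 1 rose and 1 fell (median change 0.09), near the 19.5% higher and 19.2% lower of all tested genes. SLC16A4, a member of the monocarboxylate transporter family, changed by 2.35 (SE 0.21, limma adjusted p = 4.39e-04), and BSG, the chaperone of lactate transporters, by -0.65 (SE 0.16, limma adjusted p = 0.0227). BSG was not called without Caco-2 control replicate 2 (adjusted p = 0.118), shRNA replicate 1 (0.0872) or shRNA replicate 2 (0.0903), against 0.0425 without control replicate 1. In HUG1N, 2 rose and 1 fell (median change 0.37), where 24.7% of all genes were called higher and 23.9% lower. The scaffold gene NHERF1 changed by 0.81 (SE 0.10, limma adjusted p = 0.00119), and PDZK1, another scaffold, was under log2 4 in all HUG1N arrays, so no fold can be given. BSG, ranked after these, changed by -0.78 (SE 0.16).

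CA12 is known as a target of the hypoxia response, and other targets were counted beside it. Of 22 tested targets of hypoxia-inducible factors, 15 fell and 0 rose in HUG1N (median change -0.59 against 0 over all genes), where 23.9% of all genes were called lower and 24.7% higher, in arrays with the ACTB gap of 3.73 against 2.51. The enolase ENO2 changed by -2.89 (SE 0.21, limma adjusted p = 2.22e-04). The count of 15 falls was 8 without HUG1N control replicate 1, 7 without control replicate 2, 11 without shRNA replicate 1 (with 2 rises) and 19 without shRNA replicate 2. The stress-induced mTOR inhibitor DDIT4 read 12.67 and 12.60 in control and 9.01 and 11.25 in shRNA arrays. Its shRNA arrays were far apart, and its change of -2.51 (SE 0.64, limma adjusted p = 0.0193) was -1.39 without shRNA replicate 1 and -3.63 without shRNA replicate 2. Without control replicate 1 or 2 it was not called (limma adjusted p = 0.0803 and 0.0745). In Caco-2, 4 rose and 1 fell (median change 0.13), where 19.5% of all genes were called higher and 19.2% lower, and 1 rose with any of the 4 Caco-2 arrays left out. The histone demethylase KDM3A changed by 0.93 (SE 0.22, limma adjusted p = 0.0184; 0.0690 to 0.0866 with any 1 Caco-2 array left out), and TMEM45A, the 1 that fell, was under log2 4 in all 4 Caco-2 arrays, so no fold is given. DDIT4 had the largest rise of the list in Caco-2, 1.37, from a mean of 8.21 to 9.59, but was not called. The fit takes 1 spread per gene from all groups. The SD of DDIT4 was 0.04 and 0.06 in Caco-2 control and shRNA arrays, and 1.59 in HUG1N shRNA arrays. ADM, with means of 9.06 and 10.02 in Caco-2 and an SD of 1.69 in HUG1N shRNA arrays, was not called either. The list was not tested as a set.

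Regulators of the same pathway were counted as well. Of 7 tested, 2 rose and 1 fell in Caco-2 (median change 0.01), and 1 rose and 2 fell in HUG1N (median change -0.12), with all-gene shares of 19.5% higher and 19.2% lower in Caco-2 and 24.7% and 23.9% in HUG1N. HIF1AN, the asparagine hydroxylase that inhibits these factors, changed by -1.27 (SE 0.12, limma adjusted p = 6.74e-04) in Caco-2 and -0.98 (SE 0.12, limma adjusted p = 0.00141) in HUG1N. EPAS1, a hypoxia-inducible factor subunit, changed by 1.18 (SE 0.07, limma adjusted p = 7.25e-05) in Caco-2. HIF1A, the other main subunit, changed by -0.85 (SE 0.11, limma adjusted p = 0.00125) in HUG1N.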

How the data were processed

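Total RNA was measured on 8 arrays, 2 in each of 4 groups, of an Affymetrix design. Per the submitters' processing notes, GCRMA produced the deposited log2 values (version not given in the sources used here). GCRMA subtracts background by probe sequence, so dim probe sets pile up at the lowest value and changes near it are understated or lost. Of 22277 probe sets, 19070 had 1 gene symbol, 1043 several and 2164 were not named here; symbols were updated through Entrez identifiers for 19058 of them.

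The brightest probe set by mean stood for each gene. Genes over log2 4 in at least 2 arrays were kept (7696 of 11963), and limma 3.58.1 in R 4.3.3 was fitted on the 4 group means with empirical Bayes moderation (4 residual degrees of freedom) and Benjamini-Hochberg adjustment over all genes. The number of arrays limits the precision; an exact permutation test of 2 against 2 arrays cannot reach the threshold. In simulated data of 7696 genes, 67 were changed by -0.5, 67 by -1 and 66 by -2. The Caco-2 fit recovered 86.6% of changes of -1 and the HUG1N fit 97.0%, and each recovered 43.3% of changes of -0.5. Of the calls, 3.23% and 6.55% were false. The deposited data gave 2982 and 3746 called genes, far more than were changed in the simulation, so these rates may not carry over.

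The members, gene lists and tests were chosen with earlier results of these data known. Named genes are GATA6, the carbonic anhydrases, the 2 genes most like each tested member, and the called genes of each list with the largest changes, at most 2 per list and line. Others named were chosen after their values were seen. Alternatives were other filters, normalizations, summaries, a 1.5-fold minimum, a replicate block and leaving out each array. Sequences are from RefSeq tables on GRCh38.p14, used otherwise for names and neighbours only.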

Additional observations from a re-analysis of the deposited data

Results flagged for a closer look

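The effect of the shRNA on CA2 differed between the lines by 1.18 log2 units (limma, adjusted p = 0.00794), with falls of -2.26 in Caco-2 and -1.08 in HUG1N, each seen in 2 of 2 shRNA arrays. For CA12 the difference was 0.62 (limma, adjusted p = 0.0464), with falls of -2.76 and -2.13. That CA12 call was lost in 11 of 19 alternatives. For ACTB, the gap between 3′ and 5′ probe sets had means of 2.51 without and 3.73 with the shRNA in HUG1N, and of 1.92 and 1.55 in Caco-2, and its part in both differences was not tested.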

How the results depend on the processing

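CA12 kept its direction and its call in both lines under all 20 alternatives (-2.88 to -2.10 in Caco-2, -2.27 to -1.87 in HUG1N), and so did CA2 in Caco-2 (-2.38 to -2.13). The members called for the difference between lines, 2 at first, numbered 1 with no filter, the intensity trend, the mean of probe sets and every probe set tested on its own, 1 to 2 with 1 array left out, and 0 with the 1.5-fold minimum (limma, 1 at an unadjusted p under 0.05). That minimum left 1 member in HUG1N and 1 between the control lines, where a filter at log2 6 also left 1 since CA11 was not tested. The CA11 difference reversed to 0.012 with median centring, which removed a shift of -0.045 from the difference of every gene. With a floor at 4 it was 0.76, where all HUG1N values were 4, so it held the Caco-2 change alone. With 1 array left out the CA11 difference ran from -0.25 to 0.18, and the cause of that spread was not tested. Genes called were 2982, 3746, 3457 and 6032 in Caco-2, HUG1N, their difference and the control lines, and 610, 766, 987 and 3863 with the 1.5-fold minimum. Over probe sets they were 4483, 5947, 5414 and 9696, from more features. In Caco-2 they were 1985 without control replicate 1 and 1895 without control replicate 2. Same-numbered arrays did not deviate together (r = 0.07 in Caco-2 and -0.02 in HUG1N), so the numbers were not taken to pair arrays; a replicate block gave 3, 3, 2 and 2 members and 2485, 3391, 2999 and 5560 genes. With 2 arrays a group and dim probe sets at the lowest value, CA1, CA4 and CA8 could not be assessed.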

Other observations

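Genes of the mature colon and enterocyte, where carbonic anhydrases are known to be abundant, were counted beside them. Of 14 tested of 22 listed, 4 rose and 4 fell in Caco-2 (median change -0.24), and 5 rose and 2 fell in HUG1N (median change 0.14). Of all tested genes, 19.5% were called higher and 19.2% lower in Caco-2, and 24.7% and 23.9% in HUG1N. In Caco-2 the falls numbered 2 without shRNA replicate 1 and 1 without shRNA replicate 2. In Caco-2 the tetraspanin gene TSPAN1 rose at least 8.74-fold (limma adjusted p = 3.75e-04) and GUCA2A, which encodes the hormone guanylin, rose by 2.36 (SE 0.18, limma adjusted p = 2.27e-04), while the brush-border peptidase DPP4 changed by -0.93 (SE 0.14, limma adjusted p = 0.00312).

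In HUG1N the keratin KRT20 rose from a mean of 4.31 to 8.55 (limma adjusted p = 5.41e-04), a change of 4.89 without control replicate 1 and 3.57 without control replicate 2. PLAC8 fell at least 3.53-fold in HUG1N, but rose by 1.04 in Caco-2 (SE 0.15, limma adjusted p = 0.00316). DPP4 changed by 1.36 in HUG1N (SE 0.14, limma adjusted p = 6.14e-04). Among the fibroblast markers, LUM, an extracellular matrix proteoglycan, had a mean of 3.43 in control and 7.53 in shRNA arrays of Caco-2, and was under log2 4 in all HUG1N arrays.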
